A study of Homo sapiens with 6 samples.

Results

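The circular RNAs of human chromosome 19 were taken as every listed circular RNA whose deposited position lies on that chromosome, 1 entry per identifier. They number 330 of the 9857 in the files, which is 3.35%. They were chosen by the deposited chromosome and selected on no fold change, but the files list a circular RNA only where every library of 1 group or the other had reads, so the number listed depends on read counts. The RNA came from BEAS-2B cells, an established line made by immortalising normal epithelium of the human bronchus. Of the 6 libraries, 3 were from cells held in 2.0 µM cadmium for 20 weeks and 3 from cells held at 0.0 µM for the same 20 weeks. All 6 were made from RNA cleared of ribosomal RNA and digested with RNase R, an enzyme that removes linear RNA. Whether the 3 libraries of a group are separate cultures is not given in the labels, so the p-values reflect the spread among libraries that may differ only technically. The files hold circular RNAs and no linear transcripts: of 18 epithelial marker genes only ERBB2 hosts a listed circle, of 12 mesenchymal ones BNC2, FBN1, ZEB1 and ZEB2 do, and of 5 blood and 4 endothelial ones none does. The summed level of the 4 mesenchymal hosts ran from 418 to 558 CPM (scaled junction reads) with cadmium and from 604 to 721 CPM in controls, and that of ERBB2 from 449 to 467 CPM with cadmium and from 388 to 401 CPM in controls. Neither overlapped between groups, and their part in the results was not tested.

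A circular RNA (circRNA) forms when splicing runs backwards, from the 3′ end of an exon to the 5′ end of the same or an earlier exon, and it is counted by reads across that back-splice junction. Back-splicing competes with linear splicing of the same transcript and is favoured where inverted repeats in long flanking introns pair. Chromosome 19 is known for its high density of genes, its short introns, its high GC content and its large clusters of KRAB zinc finger genes, which encode repressors of transposable elements. Cadmium is a toxic metal that raises oxidative stress, and 1 of the hosts on this chromosome is KEAP1, whose product holds the oxidative stress factor NRF2 in check.

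The junctions below are the sequences that a read must cross to be counted for the circles on which the results turn. Each runs 5′ to 3′ in the sense of the transcript, with the last 25 bases of the downstream exon in lower case and the first 25 bases of the upstream exon in capitals, and was put together from GENCODE 29 transcripts (GRCh38).
SIPA1L3, novel_circ_0015213, chr19:38130498-38130772, plus strand: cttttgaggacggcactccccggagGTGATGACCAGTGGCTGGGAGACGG
RFXANK, hsa_circ_0050212, chr19:19198107-19199234, plus strand: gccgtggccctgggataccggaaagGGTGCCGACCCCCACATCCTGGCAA
LIG1, hsa_circ_0005261, chr19:48149763-48151339, minus strand: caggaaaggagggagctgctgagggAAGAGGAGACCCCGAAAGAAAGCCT
DHX34, hsa_circ_0051680, chr19:47362476-47362693, plus strand: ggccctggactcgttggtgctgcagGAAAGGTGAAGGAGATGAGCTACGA
KEAP1, hsa_circ_0006149, chr19:10491577-10492262, minus strand: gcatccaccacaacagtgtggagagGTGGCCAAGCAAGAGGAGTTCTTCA
FKBP8, hsa_circ_0000915, chr19:18539371-18539720, minus strand: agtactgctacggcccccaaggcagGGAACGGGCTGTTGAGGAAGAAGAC
FKBP8, hsa_circ_0000914, chr19:18537601-18538436, minus strand: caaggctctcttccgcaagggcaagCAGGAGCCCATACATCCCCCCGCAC
UBA2, hsa_circ_0005325, chr19:34430576-34434968, plus strand: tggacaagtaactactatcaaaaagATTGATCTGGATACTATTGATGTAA
UBA2, hsa_circ_0006987, chr19:34430576-34438766, plus strand: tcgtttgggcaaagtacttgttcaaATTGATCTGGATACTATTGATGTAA
UBA2, hsa_circ_0004956, chr19:34431861-34438766, plus strand: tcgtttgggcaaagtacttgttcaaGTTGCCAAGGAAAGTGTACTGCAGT
The 3 junctions of UBA2 show that circles of 1 host can share exon ends, so such circles are not taken as independent. Of these, hsa_circ_0005325 and hsa_circ_0006987 share the capital bases, and hsa_circ_0006987 and hsa_circ_0004956 share the lower-case bases.

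The circles lie on both arms, 163 on the short arm (p) and 167 on the long arm (q), with the arms told apart by the widest stretch without an annotated gene, 24163426 to 27638482. They come from exons in 316 cases, from introns in 10 and from between genes in 4. A single host gene was given for 311 of them, from 166 genes, and 2 or more hosts for 15. Most hosts gave 1 circle (105 genes), 24 gave 2 and 17 gave 3. The hosts with the most were UBA2 with 12 and MYO9B with 8, and 6 hosts gave 6 each. The files name 211 in the hsa_circ style and 119 as novel_circ. Of the 330, 213 lie on the plus strand, which is 64.5%, against 51.8% on other chromosomes.

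Chromosome 19 was poor in circRNAs for its number of genes. It gave 22.4 circles and 11.3 hosts per 100 protein-coding genes, the lowest of 23 chromosomes in both, while it had 25.1 coding genes per Mb, the highest. Chromosome X was close, at 23.5 circles and 12.1 hosts per 100 coding genes. In mean junction reads per library, chromosome X was lower, at 284 per 100 coding genes beside 354 on chromosome 19. Chromosome 16, nearest in number with 323 circles, gave 37.8 circles per 100 coding genes, and chromosome 18, with 245, gave 91.1. Per Mb of chromosome, the 5.63 circles of chromosome 19 were second only to chromosome 17, at 7.36.

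Its circles were short on the genome and rich in G and C. The median distance between the ends was 1886.5 bases on chromosome 19 and 6622 bases on other chromosomes, and 35.2% on chromosome 19 spanned at most 1 kb, against 10% elsewhere. Spliced lengths were closer, with medians of 339.5 and 381 bases. The ends of 295 circles fell on exon bounds of 1 transcript, and in these the exons between the ends had a median GC of 56.4%, against 44.2% on other chromosomes. The upstream flanking intron had a median of 3540.5 bases on chromosome 19 and 6564 elsewhere, and the downstream one 3290 and 5983 bases. The lowest GC was 39.6%, in UBA2 hsa_circ_0005325, and the highest 73.3%, in a circle of RELB, an NF-kappaB subunit gene. Among the 23 chromosomes, chromosome 19 ranked first for GC, and for the shortest median span, spliced length and shorter flanking intron. These are descriptions of the annotation at the listed junctions, with no test.

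Circles of few exons were frequent. Of the 295 matched circles of chromosome 19, 36.3% held 2 exons and 26.4% held 4 or more, against 26.5% and 41.7% on other chromosomes. A start at exon 2 was as common as elsewhere, at 28.8% and 27.6%, and 1 circle held exon 1. Coding sequence alone filled 243 of the 295, and 34 reached from the 5′ untranslated region into coding sequence. An acceptor exon start was shared with another listed circle in 22.4% on chromosome 19 and 38.6% elsewhere, and a donor exon end in 27.1% and 33.7%.

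Reads were few for most members. The median was 7.33 reads per circle and library on chromosome 19 and 6.5 on other chromosomes, in libraries of 133185 to 225769 junction reads. The 8 most abundant circles took 25.5% of the chromosome's 31244 reads. Levels of circles are given in CPM, junction reads scaled to a common library total after TMM (trimmed mean of M-values) scaling. Fold changes are log2 of cadmium over control from edgeR's quasi-likelihood test, with its standard error (SE) and Benjamini-Hochberg adjustment over all circRNAs or hosts of the genome, and a call needs an adjusted p under 0.05.

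No circle of chromosome 19 passed the test between cadmium and control. Of 213 circles that passed the filter on low counts, 0 rose and 0 fell by edgeR, against a background of 0% and 0.0809% of 6182 circRNAs tested. At an unadjusted p under 0.05, 25 were higher with cadmium (11.7%), where the background was 4.32%, and 1 was lower (0.469%), where the background was 3.88%. Those 25 came from 21 hosts. DESeq2 gave 13 higher (6.1%, background 1.68%) and 1 lower (background 1.71%) at that p, and limma 21 higher (9.86%, background 4.19%) and 3 lower (background 3.95%). All 3 cadmium libraries lay above all 3 controls for 26 circles (12.2%, background 7.52%) and below them for 4 (1.88%, background 7.78%). The log2 fold change was above 0 for 149 of 213 circles (70%, background 50.7%), with a median of 0.20 beside 0.01 over all circRNAs tested. That median was the highest of the 23 chromosomes, with 0.19 on chromosome 16, -0.22 on chromosome 18 and -0.31 on chromosome 22.

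**Figure D1:**
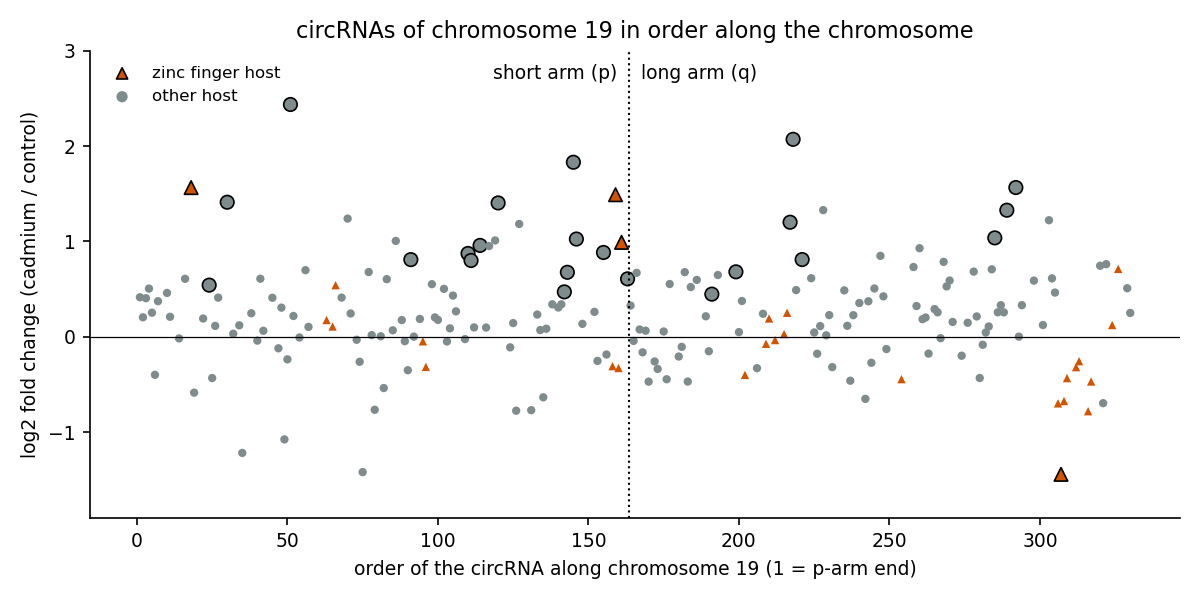
Log2 fold change (cadmium over control, vertical axis) of the 213 tested circRNAs in their order along chromosome 19 (horizontal axis), with triangles for zinc finger hosts, circles for other hosts and large outlined symbols for an unadjusted edgeR p under 0.05. Of these outlined symbols 25 lie above 0 and 1 below, and the 8 zinc finger triangles of the 50 to 55 Mb stretch, near the right end, all lie below 0. That stretch was picked for its low values.

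Cadmium replicate 3 stood apart from the other libraries. Chromosome 19 took 3.24%, 3.26% and 4.29% of junction reads in cadmium replicates 1 to 3, against 2.85%, 2.81% and 3.22% in control replicates 1 to 3. Each cadmium library lay above each control, with means of 3.60% ± 0.598 and 2.96% ± 0.227 (SD, n = 3 each) and a difference of 0.638 percentage points. Without cadmium replicate 3 the difference was 0.292 points. Other chromosomes separated too. Chromosome 16 took 2.69%, 2.74% and 2.88% with cadmium and 2.40%, 2.53% and 2.54% in controls. Chromosome 18 ran the other way, at 2.97%, 2.81% and 2.89% with cadmium and 3.52%, 3.62% and 3.50% in controls. The p arm of chromosome 19 took 1.94% ± 0.355 with cadmium and 1.56% ± 0.0991 in controls, and its q arm 1.66% ± 0.243 and 1.40% ± 0.128 (SD, n = 3 each). The number of listed circles above 0 was 302, 284 and 305 with cadmium and 322, 297 and 309 in controls, which overlap.

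Without cadmium replicate 3, the median log2 fold change of chromosome 19 was 0.05, beside -0.03 on other chromosomes, and 51.9% of circles were above 0, beside 47.6%. At an unadjusted edgeR p under 0.05, 16 circles were then higher, which is 6.93% of those tested beside 2.96% on other chromosomes. Of the 25 found with all 6 libraries, all 25 kept a log2 fold change above 0 without that library and 11 kept such a p. The 25 were picked on these same libraries, so their kept signs are no separate support. Cadmium replicate 3 was the highest of the 6 libraries for 83 of the 213 circles, and control replicate 2 the lowest for 59. The same counts are not given for other chromosomes, so these are not shown to be particular to chromosome 19. Without control replicate 2 the median was 0.11, and it lay between 0.21 and 0.28 without any of the other 4 libraries.

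**Figure D2:**
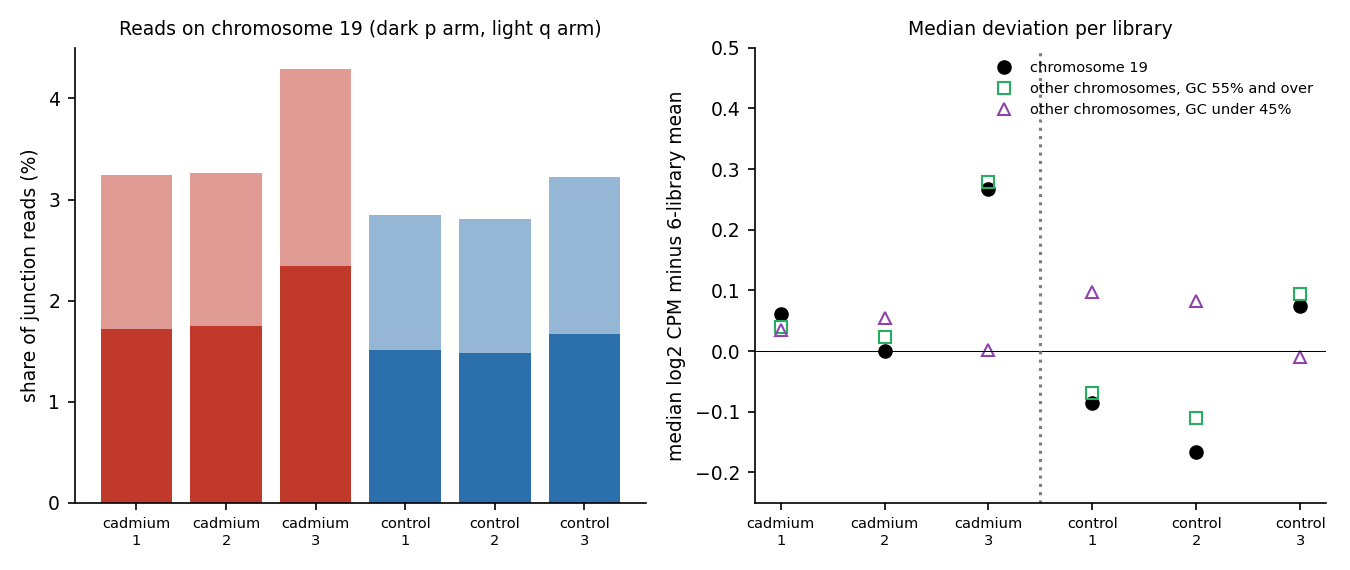
Left, share of junction reads (%) on the p arm (dark) and q arm (light) of chromosome 19 in each library, cadmium in red and control in blue. Right, median deviation of log2 CPM from the mean of the 6 libraries for circRNAs of chromosome 19 and for GC-rich and GC-poor circRNAs of other chromosomes. Cadmium replicate 3 has the highest bar, at 4.29%, and GC-rich circles of other chromosomes move with those of chromosome 19 in each library.

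GC content moved with the fold change on other chromosomes too. Circles of other chromosomes with a GC of 55% or more deviated from their 6-library mean by a median of 0.04, 0.02 and 0.28 on the log2 scale in cadmium replicates 1 to 3 and -0.07, -0.11 and 0.09 in control replicates 1 to 3. Circles of chromosome 19 had medians of 0.06, -0.00 and 0.27 with cadmium and -0.09, -0.17 and 0.07 in controls, close to those values in each library. By GC class, the median log2 fold change on chromosome 19 and elsewhere was 0.21 and -0.03 under 45%, -0.00 and -0.02 from 45% to 50%, 0.10 and 0.07 from 50% to 55%, 0.20 and 0.19 from 55% to 60%, and 0.46 and 0.22 at 60% and over. Set against circles of other chromosomes in the same class, the median for chromosome 19 was 0.07 over the 195 circles with a GC value. Without cadmium replicate 3, other chromosomes had medians between -0.05 and 0.02 in every class. Those of chromosome 19, from the lowest class to the highest, were then 0.14, -0.01, 0.10, -0.01 and 0.13.

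**Figure D3:**
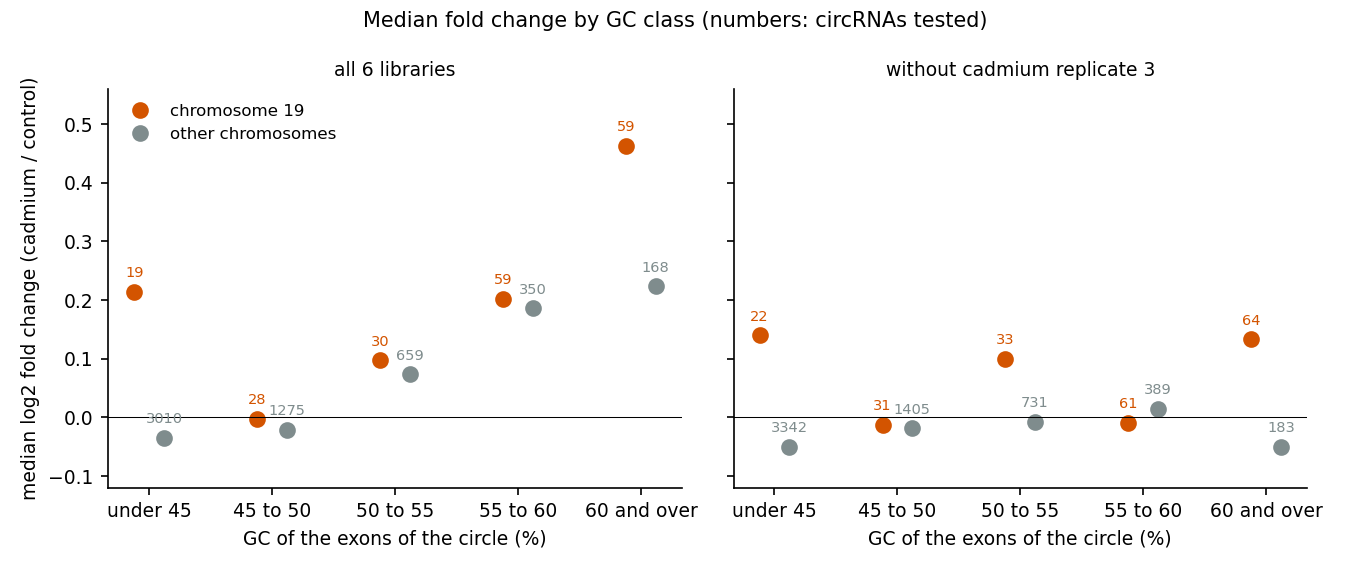
Median log2 fold change (cadmium over control) by GC class of the exons of each circle, for chromosome 19 (orange) and other chromosomes (grey), with the number of circRNAs tested beside each point. With all 6 libraries (left) both series are highest at 60% and over, at 0.46 and 0.22, and without cadmium replicate 3 (right) the other chromosomes lie between -0.05 and 0.02.

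Span moved with the fold change as well, and the share of junction reads at these loci differed between libraries. The median log2 fold change on chromosome 19 was 0.26 for circles up to 1 kb, 0.19 from 1 to 3 kb, 0.12 from 3 to 10 kb and -0.15 over 10 kb, beside 0.18, 0.09, 0.01 and -0.10 on other chromosomes. The doubled junction reads of the chromosome's circles, as a percent of themselves plus the reads of the same loci that do not cross a junction, were 30.7, 30.2 and 29.9 with cadmium and 38.9, 27.3 and 44.1 in controls. Over circRNAs of all chromosomes this percent was 30.0, 31.7 and 30.3 with cadmium and 46.1, 29.2 and 48.9 in controls. Control replicates 1 and 3 were therefore the high ones, and not on chromosome 19 alone. Without them the median log2 fold change of chromosome 19 was 0.35. With all libraries kept and a covariate added it was 0.36. That covariate was not the percent of chromosome 19. It was the log2 of each library's junction reads, not doubled, divided by its non-junction reads, over circRNAs of all chromosomes. What GC content, span or the libraries contributed to the differences of single circles was not tested.

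Of the circles of chromosome 19 with the smallest p among those higher with cadmium, 7 are described, and none passed the adjusted threshold. SIPA1L3, a gene of the family of Rap GTPase-activating proteins, gave novel_circ_0015213, a circle of exon 10 alone. It stood at 51.8, 109 and 108 CPM in cadmium replicates 1 to 3 and at 22.5, 21.8 and 18.05 CPM in control replicates 1 to 3. The groups do not overlap, and the log2 fold change was 2.07 (SE 0.50) at an edgeR adjusted p of 0.348, on 3 to 17 reads per library. RFXANK, which encodes a subunit of the complex that turns on MHC class II genes, gave hsa_circ_0050212 of exons 7 to 9. It stood at 74.0, 86.9 and 108 CPM with cadmium and 17.99, 14.5 and 42.1 CPM in controls, without overlap, at a log2 fold change of 1.83 (SE 0.50, edgeR adjusted p = 0.378).

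LIG1, the gene of the DNA ligase that joins Okazaki fragments, gave hsa_circ_0005261 of exons 7 to 9. Its levels were 126, 116 and 89.3 CPM with cadmium and 49.5, 36.3 and 42.1 CPM in controls (log2 fold change 1.33 with SE 0.39, edgeR adjusted p = 0.421). Here cadmium replicate 3 was the lowest of its group, so the distance between the groups does not rest on that library. The circle novel_circ_0014906 of the zinc finger gene ZNF714 was also even within its group, at 104, 116 and 115 CPM with cadmium and 49.5, 21.8 and 42.1 CPM in controls (log2 fold change 1.49 with SE 0.41, edgeR adjusted p = 0.378).

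DHX34, an RNA helicase gene of nonsense-mediated decay, gave hsa_circ_0051680 of exon 6 alone. It had 185, 159 and 242 CPM with cadmium and 71.9, 138 and 84.2 CPM in controls (log2 fold change 1.04 with SE 0.33, edgeR adjusted p = 0.436). For GMIP and ZSWIM4, cadmium replicate 3 lay well above the rest. GMIP, the gene of a GTPase-activating protein, gave hsa_circ_0000918 at 288, 406 and 632 CPM with cadmium and 261, 203 and 253 CPM in controls (log2 fold change 0.88, edgeR adjusted p = 0.423). ZSWIM4 gave hsa_circ_0007836 at 274, 253 and 421 CPM with cadmium and 184, 138 and 193 CPM in controls (log2 fold change 0.87, edgeR adjusted p = 0.423).

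Only 1 circle was lower at an unadjusted p under 0.05. The circle hsa_circ_0008822 of ZNF577, a zinc finger gene of the q arm, spans 26009 bases. It had 44.4, 43.5 and 25.5 CPM with cadmium and 89.9, 87.1 and 132 CPM in controls, without overlap (log2 fold change -1.44 with SE 0.43, edgeR adjusted p = 0.421). The complement gene C3 gave novel_circ_0015728 at 66.6, 36.2 and 12.8 CPM with cadmium and 94.4, 58.0 and 84.2 CPM in controls (log2 fold change -1.08 with SE 0.52, edgeR adjusted p = 0.610). Cadmium replicate 1 lies above control replicate 2 here, so the groups overlap. The ZNF331 circle novel_circ_0015622, the longest of the chromosome with ends 54998 bases apart, had 51.8, 28.97 and 44.7 CPM with cadmium and 67.4, 72.6 and 78.2 CPM in controls (log2 fold change -0.78, edgeR adjusted p = 0.669).

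The other 5 had edgeR adjusted p from 0.698 to 0.723. Circles of DNM2, the dynamin gene of endocytosis, and CARM1, an arginine methyltransferase gene of transcription, did not overlap between groups. For DNM2 hsa_circ_0002438, the levels were 37.0, 28.97 and 44.7 CPM with cadmium and 54.0, 79.8 and 60.2 CPM in controls, and for CARM1 hsa_circ_0004552 they were 51.8, 86.9 and 82.9 CPM with cadmium and 108, 102 and 114 CPM in controls. The circles of HNRNPUL1, an RNA-binding protein gene, of NFIC, a gene of the nuclear factor I family, and of TMEM38A, an ion channel gene of the endoplasmic reticulum, overlapped between groups. Their log2 fold changes were -0.65 (hsa_circ_0003079), -0.59 (hsa_circ_0006392) and -0.78 (hsa_circ_0000906).

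**Figure D4:**
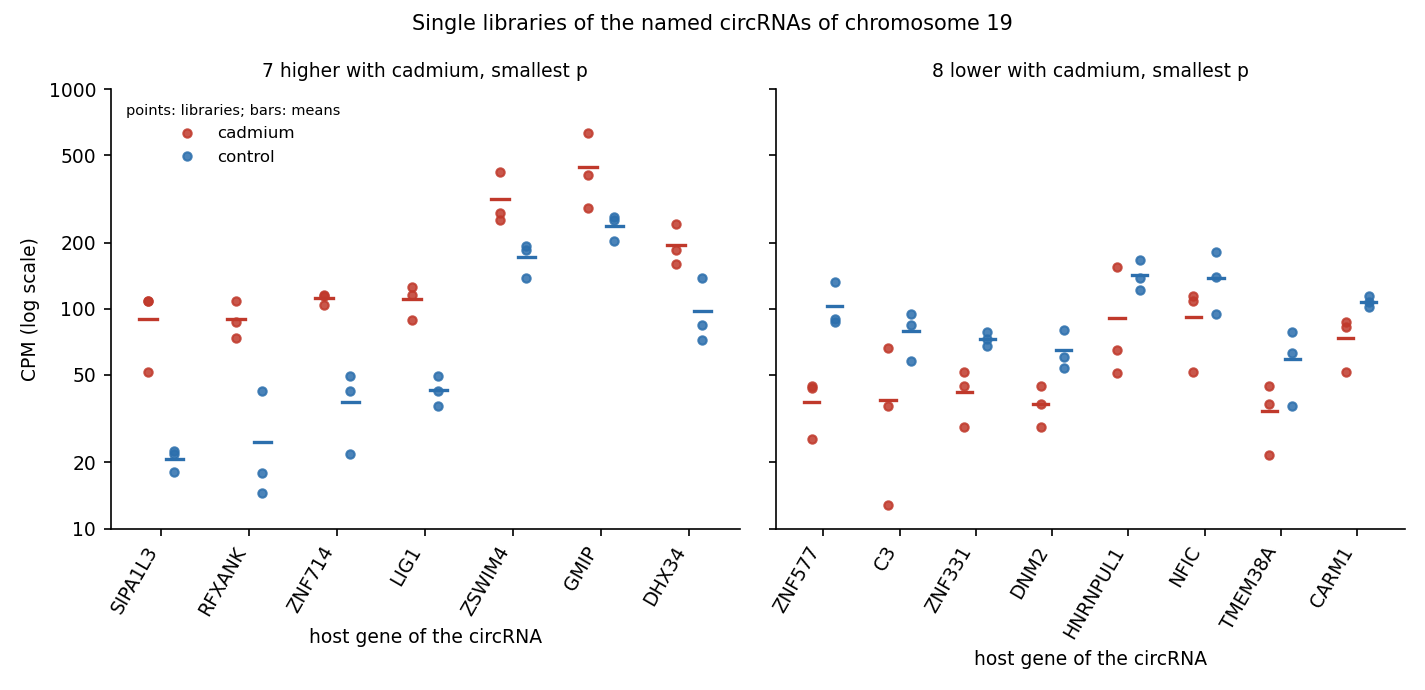
CPM (log scale) in each library of 7 of the 8 circRNAs of chromosome 19 with the smallest p among those higher with cadmium (left) and of the 8 with the smallest among those lower (right), named by host gene, with cadmium in red left of control in blue and bars at the group means. Red points lie above all blue points for each of the 7 on the left, and 4 of the 8 on the right do not overlap. The circles were picked for their small p in these same libraries, so this separation is no separate support. Over all circRNAs tested, the cadmium libraries lay wholly above the controls for 7.52% and wholly below for 7.78%.

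The most abundant circles of the chromosome came from 2 or 3 adjacent exons each. POLD1, the catalytic subunit gene of DNA polymerase delta, gave hsa_circ_0052012 of exons 2 and 3, number 48 of all 9857 circRNAs by mean CPM. It had 1398, 1492 and 2673 CPM with cadmium and 1385, 1117 and 1534 CPM in controls (log2 fold change 0.46 with SE 0.23, edgeR adjusted p = 0.643). Cadmium replicate 3 was far above the other 5, and without it the log2 fold change was 0.08. FKBP8, the gene of a chaperone-like immunophilin of mitochondria, gave both the second and the fourth. The second, hsa_circ_0000915 of exons 3 and 4, had 1294, 1369 and 2309.7 CPM with cadmium and 787, 1016 and 1324 CPM in controls (log2 fold change 0.68 with SE 0.24, edgeR adjusted p = 0.458). The fourth, hsa_circ_0000914 of exons 5 and 6, had 1154, 999 and 1889 CPM with cadmium and 994, 885 and 1041 CPM in controls (log2 fold change 0.47 with SE 0.21, edgeR adjusted p = 0.561). The 2 circles of FKBP8 share no exon, and both were highest in cadmium replicate 3. Without that library the log2 fold changes were 0.34 for hsa_circ_0000915 and 0.12 for hsa_circ_0000914.

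The third was hsa_circ_0000880 of SAFB2, a gene of chromatin and RNA binding, at 1087, 1260.2 and 1448 CPM with cadmium and 1124, 1067 and 1011 CPM in controls (log2 fold change 0.25, edgeR adjusted p = 0.702). The fifth came from the homeobox gene MEIS3 (hsa_circ_0003449, log2 fold change 0.26, edgeR adjusted p = 0.804), with 777, 811 and 1499 CPM with cadmium and 823, 819.8 and 951 CPM in controls. Then came FARSA, a subunit gene of phenylalanyl-tRNA synthetase (hsa_circ_0000896, 0.09), and CCDC9 (hsa_circ_0000944, 0.04), with edgeR adjusted p of 0.917 and 0.974 for those log2 fold changes. The signs for MEIS3, FARSA and CCDC9 turned when 1 library was left out.

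UBA2 encodes the catalytic subunit of the enzyme that activates SUMO, a small protein attached to other proteins. Its 12 circles start at exons 2, 3, 6, 8, 9 and 10 of 17 and end at exons 5, 6, 8, 15 and 16. Their GC was low for the chromosome, from 39.6% to 44.9%. The leading circle, hsa_circ_0005325 of exons 2 to 5, had 599, 558 and 561 CPM with cadmium and 409, 449.8 and 403 CPM in controls. The groups do not overlap (log2 fold change 0.45 with SE 0.17, edgeR adjusted p = 0.504), and the range when 1 library was left out was 0.38 to 0.46. With the same start and an end 1 exon further on, hsa_circ_0006987 had 281, 398 and 345 CPM with cadmium and 319, 232 and 325 CPM in controls, which overlap (log2 fold change 0.21, edgeR adjusted p = 0.849).

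Among other UBA2 circles, every cadmium library lay above every control for hsa_circ_0004956 and hsa_circ_0008813. The first, of exons 3 to 6, had 207, 210.02 and 153 CPM with cadmium and 80.9, 138 and 150.4 CPM in controls. The second, of exons 10 to 15, had 214, 181 and 204 CPM with cadmium and 126, 167 and 84.2 CPM in controls. Their log2 fold changes were 0.65 and 0.68 (edgeR adjusted p = 0.612 and 0.557). Some low circles ran the other way. The circle of exons 6 to 8, hsa_circ_0050532, had 0, 3 and 0 reads with cadmium and 10, 4 and 9 in controls. That of exons 8 to 15, novel_circ_0015093, had 0, 0 and 0 reads with cadmium and 2, 3 and 2 in controls. In both, every cadmium library lay below every control. Over all circRNAs tested, 7.52% lay wholly above the controls and 7.78% wholly below. The 12 circles of UBA2 together had 1666, 1748 and 1507 CPM with cadmium and 1296, 1311 and 1367 CPM in controls (log2 fold change 0.31 with SE 0.12, edgeR adjusted p = 0.325), and the groups do not overlap. Within the sum, hsa_circ_0005325 held 37.0%, 33.2% and 37.4% of the reads with cadmium and 32.4%, 34.6% and 30.7% in controls, which overlap.

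**Figure D5:**
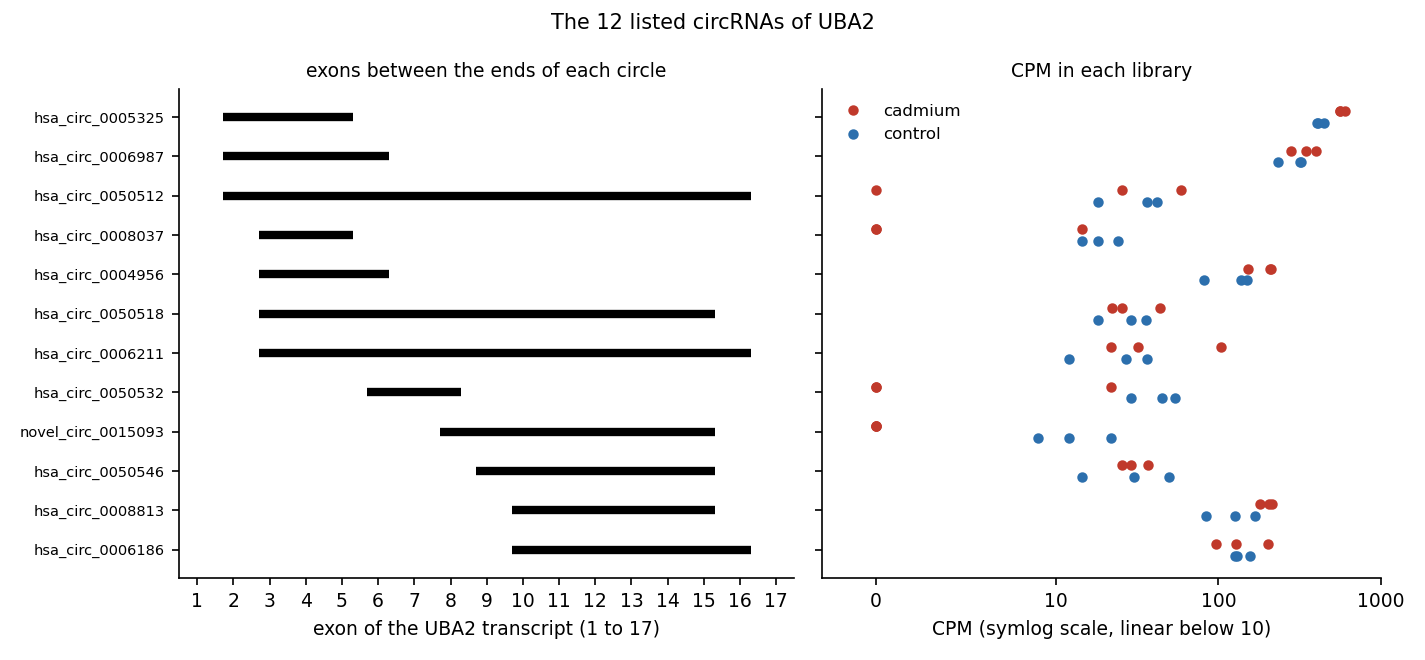
Left, the exons of the 17-exon UBA2 transcript that lie between the ends of each of its 12 listed circRNAs. Right, the CPM of each circle in the 3 cadmium libraries (red) and the 3 control libraries (blue), on a scale that is linear below 10 and logarithmic above. The circle of exons 2 to 5 is the most abundant in all 6 libraries, and 4 circles reach 0 in 1 or more cadmium libraries.

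For MYO9B and CEP89, the next hosts described, the groups overlapped in their sums. MYO9B, an unconventional myosin gene with a GTPase-activating domain, gave 8 circles from exons 5 to 26 of 40, all with 0 to 12 reads per library. Of these, hsa_circ_0007171 did not overlap between groups, at 37.0, 36.2 and 31.9 CPM with cadmium and 13.5, 14.5 and 18.05 CPM in controls, but it did not pass the filter. The sum for MYO9B stood 0.08 higher on the log2 scale (SE 0.25, edgeR adjusted p = 0.914). CEP89, a gene of centrosomes and cilia, was taken from the 6 hosts with 6 circles for its higher sum. Among the others with 6, the sums of GATAD2A and DNMT1 had every cadmium library above every control, as 9.28% of all tested hosts did. Those of KDM4B, LSM14A and HNRNPUL1 overlapped. For CEP89 the circles are given singly. The leading circle of CEP89, novel_circ_0015009 of exons 13 and 14, had 274, 232 and 281 CPM with cadmium and 220.3, 232 and 307 CPM in controls. The ranges overlap, and the log2 fold change was 0.05 for that circle and -0.04 for the sum (edgeR adjusted p = 0.972 and 0.954).

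Summed per host gene, 0 of 128 tested hosts of chromosome 19 rose and 0 fell by edgeR, where the background was 0.0332% and 0.199% of 3008 hosts. At an unadjusted p under 0.05, 18 were higher (14.1%, background 5.88%) and 2 were lower (1.56%, background 6.58%), and the median log2 fold change was 0.22 beside 0.00 over all hosts. The cadmium libraries lay above all controls for 22 hosts (17.2%, background 9.28%) and below them for 2 (1.56%, background 10%). SIPA1L3 led, at 411, 429.6 and 339.99 CPM with cadmium and 189, 234 and 163 CPM in controls from 3 circles (log2 fold change 1.01 with SE 0.22, edgeR adjusted p = 0.151). LIG1 followed at 152, 136 and 148 CPM with cadmium and 50.7, 65.9 and 62.7 CPM in controls from 2 circles (log2 fold change 1.29 with SE 0.34, edgeR adjusted p = 0.186). DHX34, from 3 circles, had 380.4, 332 and 429.8 CPM with cadmium and 212, 234 and 238 CPM in controls (log2 fold change 0.75 with SE 0.21, edgeR adjusted p = 0.204). None of these 3 overlapped between groups, and each kept its sign in every alternative fit. They were picked for their small p in these same counts, so neither is separate support.

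On the lower side, ZNF577 had 152, 211 and 148 CPM with cadmium and 318, 227 and 351 CPM in controls from 4 circles (log2 fold change -0.83 with SE 0.26, edgeR adjusted p = 0.212). ZNF331 had 137, 90.4 and 122 CPM with cadmium and 189, 183 and 295 CPM in controls from 4 circles (log2 fold change -0.92 with SE 0.30, edgeR adjusted p = 0.231). Both had every cadmium library below every control. For HNRNPUL1, from 6 circles, it was -0.32 with ranges that overlap (edgeR adjusted p = 0.587).

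KEAP1 gave the sole call of the chromosome in any fit. Its single circle, hsa_circ_0006149, is exon 3 alone, and had 0, 0 and 16 reads with cadmium and 22, 12 and 18 reads in controls. The cadmium libraries thus held both none and a level like that of controls, at 102 CPM in replicate 3 beside 98.9, 87.1 and 108 CPM in controls, and with all libraries the fitted change was -1.42 on the log2 scale (SE 0.92, edgeR adjusted p = 0.727). Without cadmium replicate 3 it passed the test as lower (edgeR adjusted p = 0.0160), as did the host KEAP1 as a sum (edgeR adjusted p = 0.00749), since the cadmium libraries that remain are both at 0. Over the 6 fits that left out 1 library, the circle's other adjusted p were 0.809 to 0.922. Listed zeros need not be absence: 9 circles of the chromosome had 0 reads in 1 library where the other libraries of the group implied 10 or more. Examples are hsa_circ_0002882 of the receptor kinase gene AXL, with 0, 32 and 36 reads with cadmium and 35, 29 and 47 in controls, and hsa_circ_0007715 of CIRBP, a cold-inducible RNA-binding protein gene, with 17, 22 and 70 with cadmium and 44, 0 and 54 in controls.

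Zinc finger genes form the largest gene family of the chromosome, with 268 coding genes by symbol, of which 29 were single hosts, giving 40 circles. Of 19 tested by host sum, 0 rose and 0 fell, 9 were above 0 and the median log2 fold change was -0.04, below the 0.22 of all tested hosts of the chromosome. With hosts in pairs and the pseudogene ZNF788 included, 47 circles had a zinc finger host. Their median GC was 47.0% and their median log2 fold change -0.06 over 28 tested, while the other circles of the chromosome had 57.8% and 0.23 over 185. Of the junction reads of cadmium libraries, zinc finger circles took 0.256% ± 0.0195 and the other circles 3.34% ± 0.616. In control libraries these shares were 0.265% ± 0.00589 and 2.69% ± 0.231 (SD, n = 3 in each group).

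Within the family the values differed by arm. On the p arm, 7 of 11 tested zinc finger circles were above 0 with a median log2 fold change of 0.18, and 3 of the 11 were higher at an unadjusted edgeR p under 0.05, from ZNF77, ZNF714 and ZNF91. The shares at that p were 11.7% over the chromosome and 4.32% over all circRNAs tested, and the shares above 0 were 70% and 50.7%. On the q arm, 5 of 17 were above 0 with a median of -0.32, and the share of reads was 0.138% ± 0.0103 in cadmium libraries and 0.174% ± 0.0114 in control libraries (SD, n = 3 each). The lowest stretch was 50 to 55 Mb, where 8 of 8 tested zinc finger circles were below 0, with a median of -0.57. The 13 zinc finger circles listed there took 0.0664% ± 0.00939 with cadmium and 0.101% ± 0.0139 in controls. This stretch was picked for its low values, so the run of 8 is no separate support. Nor are its circles independent, since ZNF577 and ZNF331 gave 4 listed circles each. The difference between the arms was not tested. Outside the 50 to 55 Mb stretch, 12 of 20 tested zinc finger circles of both arms together were above 0, with a median of 0.11. By host sum, log2 fold changes were -0.32 for ZNF766 of that stretch and -0.12 for ZNF823 of the p arm (edgeR adjusted p = 0.626 and 0.879), and the sign for ZNF823 turned when 1 library was left out. Zinc finger genes resemble each other in sequence, so reads of 1 gene could be counted for another.

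Over all hosts, the arms had similar medians. The median log2 fold change was 0.20 over 105 circles of the p arm and 0.21 over 108 of the q arm, and the difference was not tested. At an unadjusted edgeR p under 0.05, 17 circles of the p arm were higher (16.2%) and 0 lower, and 8 of the q arm were higher (7.41%) and 1 lower (0.926%), where the background was 4.32% higher and 3.88% lower. In windows of 5 Mb, the medians ran from -0.45 at 50 to 55 Mb (10 tested, 2 above 0) to 0.60 at 20 to 25 Mb (7 tested). Windows with 20 or more tested circles had medians from 0.05 at 30 to 35 Mb, where UBA2 and CEP89 lie, to 0.26 at 45 to 50 Mb.

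The other lists of hosts were small, and in each 0 rose and 0 fell by edgeR. Their counts above 0 stand beside 68% of the 128 tested hosts of the chromosome and 50% of all 3008 hosts, and no list was tested against these. Among chromatin and transcription genes, 9 of 14 tested were above 0 with a median log2 fold change of 0.27, and the most abundant were SAFB2 (0.25), the histone demethylase gene KDM4B (-0.09) and MLLT1, a gene of transcription elongation (0.30). Among RNA processing genes 5 of 6 were above 0 (median 0.39), with 0.09 for the splicing regulator gene HNRNPM. All 5 hosts of DNA repair and replication were above 0 (median 0.44), among them POLD1 (0.48), the chromatin assembly gene CHAF1A (0.29) and the ribonuclease gene RNASEH2A (0.44). The value for POLD1 was 0.15 without cadmium replicate 3, and that for RNASEH2A was 0.28 without control replicate 1. The signs for KDM4B, MLLT1, HNRNPM and CHAF1A turned when 1 library was left out.

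Among hosts listed as kinases 5 of 6 were above 0 (median 0.17). PIP5K1C, in fact a lipid kinase gene, had 662, 784 and 821 CPM with cadmium and 493, 586 and 489 CPM in controls, without overlap (log2 fold change 0.54 with SE 0.16, edgeR adjusted p = 0.204). AXL had 0.01 and the microtubule kinase gene MARK4 0.12, both with signs that turned in other fits. GTPase regulators had 3 tested of 3 above 0 (median 0.88), namely SIPA1L3, GMIP and MYO9B. Of vesicle and cytoskeleton genes 3 of 5 were above 0 (median 0.11), with 0.48 for VASP, an actin regulator, and signs that turned for DNM2 (-0.04) and the tropomyosin gene TPM4 (-0.12). In the list of metal, redox and stress genes, 2 were tested, KEAP1 and the choline transporter gene SLC44A2 (0.14).

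Few circles were seen in 1 group only. Of the 330, 4 were read in all 3 cadmium libraries and no control (1.21%, and 0.943% of all circRNAs), from CEP89, PROSER3, the RAB4B locus and ZNF606. The 7 read in all 3 controls and no cadmium library (2.12%, and 2.15% of all) included circles of the histone methyltransferase gene DOT1L, the DNA methyltransferase gene DNMT1, the actin crosslinker gene ACTN4 and the inflammasome gene CARD8. The highest count among these 11 was 7 reads. In the authors' deposited table, 19 circles of chromosome 19 were higher (5.76%, background 2.39%) and 6 lower (1.82%, background 2.75%) with cadmium at their unadjusted p under 0.05. In the authors' deposited table, 0 of the 142 with an adjusted p passed, where the background was 0.0254% higher and 0.127% lower of 3939.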

How the data were processed

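Per the labels' protocols, RNA was depleted of ribosomal RNA, treated with RNase R and made into dUTP libraries, which keep the strand. The submitters' processing notes name Bowtie2 2.2.8, Bowtie, DESeq 1.10.1 and hg19, without saying what each did. No source used here says how circRNAs were called. The positions follow GRCh38 and are given in it, counted from 1.

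The authors' deposited counts are whole junction reads per circRNA and library. The deposited TPM values are counts over the library total, with no length term, and served 1 alternative. The authors' deposited comparison gives log2 fold changes and p-values, and group means of normalised signal that were not used. The deposited annotation gives positions, hosts and the counts of non-junction reads.

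All circRNAs entered a quasi-likelihood fit in edgeR 4.0.16 (R 4.3.3; TMM, robust, filterByExpr with minimum count 5 and minimum total 15, Benjamini-Hochberg adjusted p under 0.05), and counts summed per single host likewise. The SE was worked back from the test. Exons, GC and junctions came from GENCODE 29.

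Named circles are the 8 with the smallest p in each direction, the 8 most abundant, and all from the 3 hosts with most circles. Of these, 2 circles are not reported here. Named hosts are the 5 with the smallest p in each direction and up to 3 per list. KEAP1 hsa_circ_0006149, circles with zeros or in 1 group, the zinc finger circles at an unadjusted p under 0.05 and the RELB circle were named after their values were seen. The members and lists were chosen with earlier results of these data known. Alternatives were DESeq2 1.42.0, limma 3.58.1 on log2(TPM + 1), other scalings and filters, a replicate block and leaving out each library. Added after seeing the data were leaving out control replicates 1 and 3, a covariate of the junction to non-junction ratio, and matching by GC class. Libraries held 133185 to 225769 junction reads. No 2 libraries of a group looked like copies: chi-square over its degrees of freedom was 1.59 to 2.49. Reads carry no molecular identifiers, so they are not independent molecules.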

Additional observations from a re-analysis of the deposited data

How the results depend on the processing

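Of 947 other fits of the 67 named circRNAs and hosts tested, 897 kept the sign and 50, from 21 of them, did not. The count of circRNAs higher at an unadjusted p under 0.05 was 25 and became 13 by DESeq2, and the count of lower ones was 1 and became 12 with no filter and 3 by limma. The lower hosts, 2 in number, became 5 with no filter. Both counts of lower ones became 0 without control replicates 1 and 3, which leaves 1 control assumed to vary like the cadmium libraries, and 0 with the junction ratio as a covariate. Leaving out each library in turn gave 0 to 1 circRNAs and 0 to 1 hosts past the threshold, 16 to 25 circRNAs higher and 1 to 5 lower, and 1 to 4 hosts lower. The median span of circles that passed the filter was 1497 bases.

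The replicate numbers did not pair the libraries (correlations of deviations 0.0002, 0.0216 and 0.0517). With the replicate block 0 circRNAs passed, 24 had an unadjusted p under 0.05 as higher and 1 as lower, and the median log2 fold change was 0.197.

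Log2 fold changes that turned sign were, by limma and with the block, -0.0054 and -0.0043 for hsa_circ_0006186 and -0.0192 and -0.0201 for host AXL. Without control replicates 1 and 3 and with the covariate they were 0.149 and 0.0937 for hsa_circ_0000910, 0.0333 and 0.0140 for novel_circ_0015012, 0.857 and 0.791 for host TPM4, and 0.133 and 0.118 for host CEP89. Leaving out 1 library, the range was -0.141 to 0.380 for hsa_circ_0003449, -0.0344 to 0.165 for hsa_circ_0000896, -0.189 to 0.200 for hsa_circ_0000944, -1.24 to 0.386 for hsa_circ_0050512, -0.309 to 0.222 for hsa_circ_0006186, -0.287 to 0.640 for novel_circ_0014806, -0.101 to 0.226 for hsa_circ_0004071 and -0.0495 to 0.195 for novel_circ_0015009. For hosts it was -0.207 to 0.0204 for ZNF823, -0.342 to 0.193 for KDM4B, -0.212 to 0.492 for MLLT1, -0.0601 to 0.201 for HNRNPM, -0.249 to 0.179 for AXL, -0.0622 to 0.268 for MARK4, -0.0766 to 0.290 for MYO9B, -0.0934 to 0.0013 for DNM2, -0.390 to 0.0734 for TPM4, -0.129 to 0.557 for CHAF1A and -0.143 to 0.0832 for CEP89. The cause was not tested. With a median of 7.33 reads, the depth limits single circles.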
